A study of Mus musculus with 7 samples.

Results

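Sarcomere and excitation-contraction genes were followed across 7 libraries of whole mouse ankle. The members are 47 named genes of the skeletal muscle contractile apparatus and its calcium handling, taken by symbol from the deposited gene table. They are grouped by function, but they were chosen with earlier results of these data known. All 47 were found, as 1 row each among 27179 genes, and all 47 had a mean of at least 1 FPKM (reads scaled by exon length and library depth), the level set for testing.

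Each library held RNA from an ankle joint of a DBA1 mouse with collagen-induced arthritis, in which mice immunised with collagen develop inflamed, eroded joints. In 3 ankles, the controls, a lipoplex (a lipid carrier) with an irrelevant microRNA had been injected into the joint, and in 4 the lipoplex carried a miR-17-5p mimic, a synthetic copy of that microRNA. The ankle was taken whole after the skin had been removed, so joint tissue, bone, marrow and adjoining muscle contributed to the same RNA. The sources used here do not give the age of the mice, the dose and timing of the injection, or whether each ankle is from its own animal. The p-values therefore measure the spread between these libraries.

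Skeletal muscle contracts when myosin thick filaments pull on actin thin filaments inside the sarcomere. The pull is switched on by calcium, which the sarcoplasmic reticulum releases through Ryr1 after the voltage sensor Cacna1s reads an action potential, and which binds troponin on the thin filament. Slow and fast fibres use different gene copies for many of these parts: slow fibres carry Myh7, Tnni1 and Atp2a2 among others, and fast fibres Myh1, Myh2, Myh4, Tnni2 and Atp2a1.

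The libraries held between 27465276 and 31118975 assigned reads. The members took up from 0.569% to 3.77% of them, and the fewest reads behind a member in a library were 29, for Myl3 in control 5. Control 5 also stood apart in its keratins: the 6 skin markers summed to 80.7 FPKM there and to between 1.04 and 1.68 FPKM in the other 6 libraries. The median of each set of members is given with and without that library. In bulk RNA, fewer muscle cells in an ankle and less of a transcript per muscle cell cannot be told apart.

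The members were high in some ankles of either group and low in others. Their summed level was 12778, 6083 and 2555 FPKM in controls 2, 3 and 5, and 5431, 16485, 8646 and 18552 FPKM in mimic ankles 1, 2, 4 and 5. Control 5 was lowest for 44 of the 47 members, and mimic 2 or mimic 5 was highest for 43. Control 2 lay above mimic 1 and mimic 4 for 43 members, so the groups overlapped for nearly all. The highest library exceeded the lowest by a median of 7.48 times over the members, from 1.33 times for Tpm3 to 39.3 times for Pvalb.

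**Figure D1:**
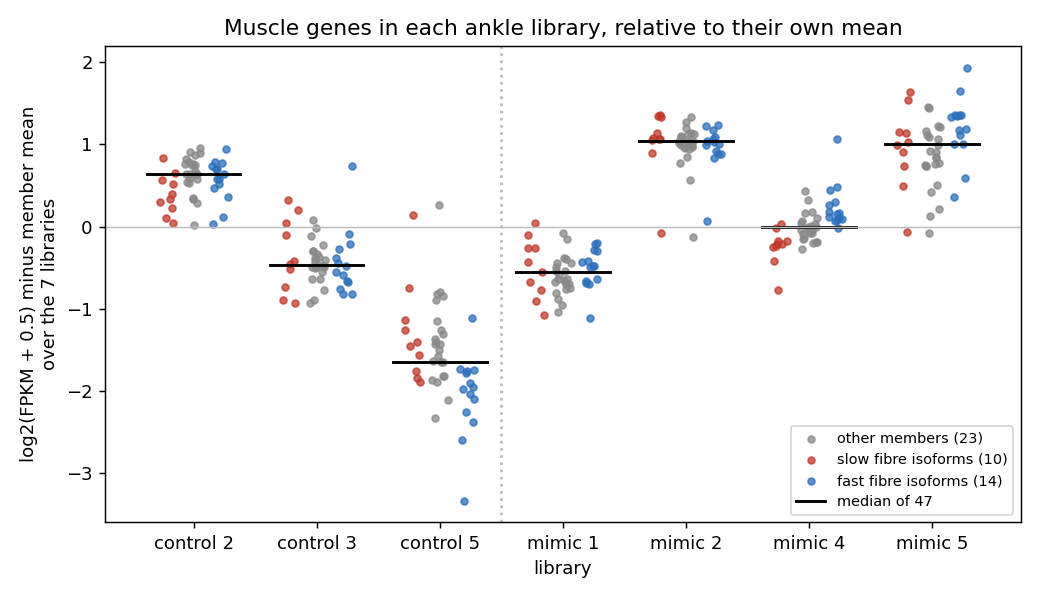
Each point is 1 of the 47 members in 1 library, as its log2(FPKM + 0.5) minus the mean of that member over the 7 libraries (vertical axis, log2 units), with the 3 control and 4 mimic libraries along the horizontal axis. Black lines are medians over the members, which ran from -1.64 in control 5 to 1.04 in mimic 2, and the medians of the slow and the fast members had the same sign in each library except mimic 4 (-0.21 and 0.15).

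No member passed the test between the groups. With limma on log2(FPKM + 0.5), where fold changes are mimic minus control and understate the change of low genes, the adjusted p was under 0.05 for 0 members with a higher and 0 with a lower level, beside 0% of the 13418 genes tested in either direction. The median log2 fold change over the members was 0.84, against -0.0063 over all genes tested, and 45 of 47 had a positive value. At an unadjusted p under 0.05 there was 1 member higher, where 7.48% of all genes tested were, and 2 were lower, where 10.1% of all genes tested were. Every mimic library lay above every control library for 0 members, beside 6.48% of genes tested, and below every control library for 2, Tpm3 and Atp2a2, beside 8.84%.

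The size of this difference moved with single libraries. Without control 5 the median over the members was 0.27, with 41 of 47 positive and 0 members at an unadjusted p under 0.05. Without control 2 the median was 1.42, and 26 members were higher and 2 lower at an unadjusted p under 0.05, beside 13.2% and 15.3% of genes tested. The smallest limma adjusted p among the members was then 0.0909, so 0 passed, where 2.36% of the genes tested did.

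**Figure D2:**
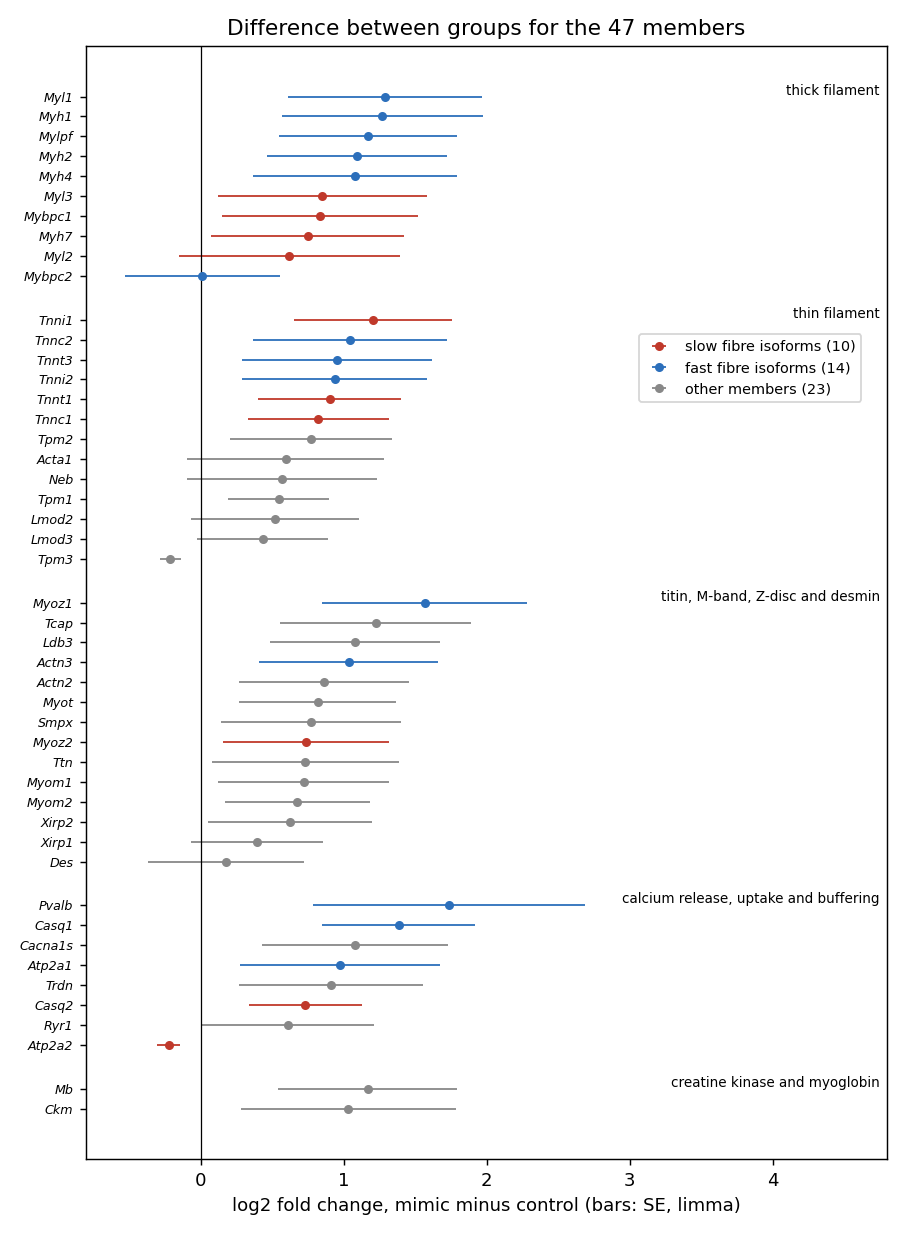
Points are the log2 fold changes of the 47 members (horizontal axis, mimic minus control on the log2(FPKM + 0.5) scale) with their standard errors from limma as bars, grouped by role on the vertical axis and coloured by fibre type. The values run from -0.22 for Atp2a2 to 1.74 for Pvalb, and the 2 negative ones, Atp2a2 and Tpm3, carry the shortest bars.

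The injected mimic copies miR-17-5p, whose seed (bases 2 to 8, in capitals) pairs with messenger RNA. Its RefSeq mature sequence (GRCm38.p6, chr14:115043684-115043706, plus strand) is shown because the treatment acts through it.
miR-17-5p: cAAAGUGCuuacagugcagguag
Matches to that seed were searched on the transcript strand of the gene's longest 3 prime UTR (GENCODE M21, GRCm38), counting GCACTTTA as an 8mer and GCACTTT and CACTTTA as 7mers. Such a match was found in 5 of the 47 members (10.6%) and in 2671 of 12495 tested genes with a UTR (21.4%). The members' UTRs were shorter, with a median length of 344 bases against 1145. Whether the muscle form of a gene, Tpm1 and Tpm2 included, uses its longest UTR was not tested. The 5 members with a match are tropomyosins Tpm1 and Tpm2, titin (Ttn), the M-band protein Myom2 and Smpx, a small muscle protein. Their sites are shown with the match in capitals, for Tpm1 (chr9:67023609-67023638, minus strand), Tpm2 (chr4:43515508-43515537, minus strand), Ttn (chr2:76704472-76704501, minus strand), Myom2 (chr8:15133082-15133111, plus strand) and Smpx (chrX:157752329-157752358, plus strand).
Tpm1: aaacacaccctGCACTTTAcgtcagggtgg
Tpm2: ctcccagcctgGCACTTTctgataatcaat
Ttn: cctgtaagcaaCACTTTAacgtcttacgtt
Myom2: tttttgatcttGCACTTTgcgatgcaaatt
Smpx: gttgcatttctCACTTTAgctacatttttg
All 5 of these genes had a positive log2 fold change, from 0.55 for Tpm1, which holds the 8mer, to 0.77 for Tpm2 and Smpx, and none passed (limma adjusted p from 0.436 to 0.567). Without control 5 the 5 values ran from 0.12 for Ttn to 0.34 for Smpx. The 42 other members had no such match in the UTR searched. A link between sites and fold changes was not tested.

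Promoters of the members, from 250 bases before to 50 after the start, were compared with all 32851 promoters in the RefSeq table (GRCm38.p6) and with the 13185 of genes tested here. The table held 43 promoters for 35 of the members, some of which overlap. The motif CAGCTG, an E-box of the kind bound by myogenic factors such as MyoD, occurred in 20 of the 43 (46.5%), in 16.3% of all promoters and in 15.8% of those of tested genes. The motif CTANNNNTA, a loose form of the MEF2 element, searched on each strand, occurred in 21 (48.8%), in 21.0% of all and in 14.7% of those of tested genes. The motif TATAAA, which can overlap the MEF2 form, occurred in 7 (16.3%), in 13.6% of all and in 7.68% of those of tested genes. A CAGCTG and a CTANNNNTA stood together in 8 of the 43 promoters (18.6%), in 3.01% of all and in 2.33% of those of tested genes. The 8 belong to Cacna1s, Des, Myh4, Myl1, Mylpf, Myoz2 and Tnni1, which has 2 of them. A promoter of a slow, a fast and a shared gene is shown, with these motifs in capitals: Tnni1 (chr1:135799171-135799470, plus strand), Mylpf (chr7:127211358-127211657, plus strand) and Des (chr1:75360042-75360341, plus strand).
Tnni1: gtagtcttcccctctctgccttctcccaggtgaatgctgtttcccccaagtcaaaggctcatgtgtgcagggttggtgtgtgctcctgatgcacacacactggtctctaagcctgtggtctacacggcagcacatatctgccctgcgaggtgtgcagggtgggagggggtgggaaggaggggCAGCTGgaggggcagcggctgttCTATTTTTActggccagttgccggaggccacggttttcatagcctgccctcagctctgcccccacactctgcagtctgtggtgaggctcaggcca
Mylpf: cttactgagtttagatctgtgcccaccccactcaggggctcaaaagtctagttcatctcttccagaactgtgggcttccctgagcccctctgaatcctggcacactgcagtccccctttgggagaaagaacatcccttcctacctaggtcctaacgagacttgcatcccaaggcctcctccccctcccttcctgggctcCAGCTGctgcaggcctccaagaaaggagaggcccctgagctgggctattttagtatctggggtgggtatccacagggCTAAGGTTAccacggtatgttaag
Des: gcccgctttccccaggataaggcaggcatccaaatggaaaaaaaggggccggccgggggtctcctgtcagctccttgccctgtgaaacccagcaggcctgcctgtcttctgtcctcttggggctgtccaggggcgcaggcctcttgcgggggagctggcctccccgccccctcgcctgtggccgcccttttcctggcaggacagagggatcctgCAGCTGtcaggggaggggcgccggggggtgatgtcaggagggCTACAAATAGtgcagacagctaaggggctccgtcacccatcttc
These matches are a description of the sequence.

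The thick filament members comprised 4 myosin heavy chains, 4 light chains and 2 myosin binding proteins. All 10 had a positive log2 fold change, with a median of 0.97, and none passed. Leaving out control 5 gave a median of 0.23, with 9 positive. Myosin heavy chains supply the motor of contraction. Myh1 (the IIx chain, mm10 chromosome 11, 67200114 to 67224575) stood at 341, 204 and 46.9 FPKM in controls 2, 3 and 5 and at 182, 495, 297 and 623 FPKM in mimic ankles 1, 2, 4 and 5. Myh2, the IIa chain, stood at 296, 115 and 48.3 FPKM in the controls and 149, 412, 180.3 and 365 FPKM in the mimic ankles. For each of these genes control 5 was lowest, and control 2 exceeded mimic 1 and mimic 4.

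Myh4, the IIb chain of the fastest fibres, stood at 108, 37.9 and 11.3 FPKM in the controls and 41.7, 100.01, 118 and 71.8 FPKM in the mimic ankles. It was the 1 member with its highest value in mimic 4. Myh7, the slow chain (chromosome 14, 54970688 to 54994549), stood at 12.7, 7.31 and 1.85 FPKM in the controls and 4.77, 16.9, 6.63 and 18.1 FPKM in the mimic ankles. Per length, the slow chain was far below the fast chains in each library. Myh1, Myh2 and Myh4 are close copies that lie side by side on chromosome 11, so reads could be split among them. Myh1 made up 43.3% to 57.8% of the summed FPKM of the 4 chains over the 7 libraries. Myh2 made up 29.98% to 44.6%, Myh4 6.66% to 19.6% and Myh7 1.10% to 2.01%. The Myh4 share was 19.6% in mimic 4 and 6.66% in mimic 5, so its extremes fell in the same group.

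**Figure D3:**
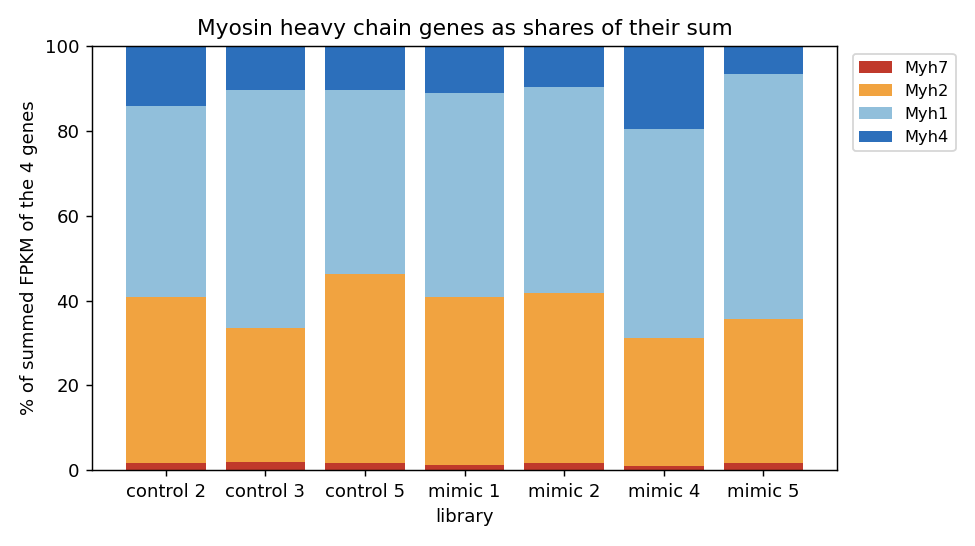
Bars show the FPKM of Myh7, Myh2, Myh1 and Myh4 as percent of their sum (vertical axis) in each of the 7 libraries (horizontal axis, controls at the left). Myh1 and Myh2 fill most of each bar, and the Myh4 share is 19.6% in mimic 4 and 6.66% in mimic 5.

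Light chains stabilise and tune the myosin lever arm. Mylpf, the fast regulatory light chain and the highest thick filament member (chromosome 7, 127211608 to 127214287), stood at 923, 351 and 179.9 FPKM in the controls and 439, 1455, 684 and 1332 FPKM in the mimic ankles. Its log2 fold change was 1.17 (SE 0.62, limma adjusted p = 0.361), and 0.62 without control 5. Myl1, the fast essential light chain, stood at 504, 199 and 81.3 FPKM in the controls and 240.2, 789, 361 and 865 FPKM in the mimic ankles. Each was lowest in control 5, and the groups overlapped.

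The slow light chains were low. Myl2, the slow and cardiac regulatory chain, stood at 22.04, 17.9 and 6.00 FPKM in the controls and 7.96, 44.9, 9.97 and 51.5 FPKM in the mimic ankles. Myl3, the slow and cardiac essential chain, stood at 5.66, 6.65 and 1.05 FPKM in the controls and 2.57, 10.2, 4.56 and 17.3 FPKM in the mimic ankles. For both, mimic 1 and mimic 4 lay among the low libraries and below control 3.

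Myosin binding proteins C brace the thick filament. Mybpc1, named the slow form, stood at 217, 84.8 and 35.7 FPKM in the controls and 71.1, 257, 119.8 and 267 FPKM in the mimic ankles. Mybpc2, the fast form, stood at 36.1, 46.98 and 12.7 FPKM in the controls and 12.7, 29.6, 39.3 and 42.4 FPKM in the mimic ankles. Mybpc2 departed from the order of most other members, with its highest level in control 3, as was the case for Atp2a2. Mybpc2 had the log2 fold change nearest 0 (0.014, SE 0.54). Its sign turned when control 5, mimic 2, mimic 4 or mimic 5 was left out.

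The thin filament members comprised skeletal actin, 6 troponins, 3 tropomyosins, nebulin and 2 leiomodins. Of these 13, 12 had a positive log2 fold change and the median was 0.77. With control 5 left out, the median was 0.29 and 10 were positive. Acta1, skeletal alpha-actin and the member with the highest mean in this group (chromosome 8, 123891767 to 123894736), stood at 1772, 976 and 337 FPKM in the controls and 514, 2072, 1055 and 2253 FPKM in the mimic ankles. Its log2 fold change was 0.59 (SE 0.69, limma adjusted p = 0.654), and -0.060 without control 5.

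Troponin I holds the thin filament off until calcium arrives. Tnni1, the slow form, stood at 78.5, 31.9 and 19.8 FPKM in the controls and 55.5, 153, 51.4 and 122 FPKM in the mimic ankles. The log2 fold change of Tnni1 was 1.204, with an SE of 0.55 and a limma adjusted p of 0.309, and 0.77 without control 5. Tnni2, the fast form, stood at 828, 338 and 153 FPKM in the controls and 312, 1036, 542 and 1152 FPKM in the mimic ankles. Mimic 1 lay above control 3 for the slow form and below it for the fast form.

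Troponin T ties the complex to tropomyosin. Tnnt1, the slow form, stood at 324, 118 and 102 FPKM in the controls and 188, 474, 200.4 and 426 FPKM in the mimic ankles. Tnnt3, the fast form, stood at 1280.2, 463 and 219 FPKM in the controls and 468, 1527, 777 and 1681 FPKM in the mimic ankles. The lowest library was control 5 for each, by a wider margin for Tnnt3.

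Troponin C is the calcium sensor. Tnnc1, the slow and cardiac form, stood at 88.7, 52.5 and 29.99 FPKM in the controls and 53.2, 152, 62.2 and 144 FPKM in the mimic ankles. Tnnc2, the fast form, stood at 919.6, 425 and 153 FPKM in the controls and 381, 1178, 624 and 1507 FPKM in the mimic ankles. The groups overlapped for all 6 troponins.

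Tropomyosin lies along actin and covers the myosin sites. Tpm3, which besides its slow muscle form makes forms used in other cells (chromosome 3, 90072651 to 90100902), stood at 38.9, 40.5 and 45.9 FPKM in the controls and 34.4, 35.02, 38.1 and 36.2 FPKM in the mimic ankles. Every mimic library lay below every control library, and control 5, lowest for most members, was highest for Tpm3. Its log2 fold change was -0.21 (SE 0.073, limma adjusted p = 0.223), and -0.14 without control 5. Tpm1 and Tpm2 varied by 3.14 and 5.56 times between libraries, with log2 fold changes of 0.55 (SE 0.35) and 0.77 (SE 0.57), which were 0.25 and 0.29 without control 5. Neb, the giant ruler of the thin filament, and the leiomodins Lmod2 and Lmod3, which nucleate actin, had log2 fold changes of 0.57, 0.52 and 0.43, each smaller than its SE (0.66, 0.59 and 0.46). Without control 5 these were 0.016, -0.018 and 0.16.

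The titin, M-band, Z-disc and desmin set held 14 members, all with a positive log2 fold change and a median of 0.76. The median was 0.28, with 13 positive, when control 5 was left out. Des, the muscle intermediate filament and the highest of them (chromosome 1, 75360344 to 75367716), stood at 617, 256 and 183 FPKM in the controls and 178, 679, 273 and 443 FPKM in the mimic ankles. The controls and mimic ankles covered nearly the same range, and the log2 fold change was 0.18 (SE 0.55, limma adjusted p = 0.876). It was -0.19 without control 5 and -0.14 without mimic 2.

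Calsarcins anchor calcineurin at the Z-disc. Myoz1, the fast calsarcin (chromosome 14, 20649102 to 20656540), stood at 49.7, 39.2 and 7.14 FPKM in the controls and 39.4, 95.8, 51.8 and 144 FPKM in the mimic ankles. The log2 fold change of Myoz1 was 1.57 (SE 0.72, limma adjusted p = 0.308), and 0.72 without control 5. Myoz2, the slow calsarcin, stood at 42.1, 21.0 and 10.4 FPKM in the controls and 19.1, 72.2, 23.7 and 47.4 FPKM in the mimic ankles. Mimic 1 and mimic 4 lay below control 2 for Myoz2, and mimic 4 above it for Myoz1.

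The other 11 of this set had log2 fold changes from 0.40 (Xirp1) to 1.22 (Tcap). Ttn, the molecular spring of the sarcomere, ran from 3.00 FPKM in control 5 to 22.9 FPKM in mimic 2. Tcap, which caps titin at the Z-disc, ran from 81.1 FPKM in control 5 to 784 FPKM in mimic 5. The alpha-actinins crosslink actin at the Z-disc: the log2 fold change was 0.86 (SE 0.59) for Actn2, found in all fibres, and 1.04 (SE 0.63) for Actn3, limited to fast fibres. Ldb3 and Myot, Z-disc proteins that bind alpha-actinin, had 1.08 and 0.82. The M-band proteins Myom1 and Myom2 had 0.72 and 0.68, Smpx 0.77 and the repair-associated Xin proteins Xirp1 and Xirp2 0.40 and 0.63. Each of these 11 was lowest in control 5, and without it their log2 fold changes ran from 0.10 for Xirp1 to 0.67 for Tcap.

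The calcium members were the voltage sensor, the release channel and its partners, the uptake pumps and a calcium buffer. Of 8, 7 had a positive log2 fold change and the median was 0.94. It was 0.34 without control 5, again with 7 positive. Cacna1s, the voltage sensor, ran from 4.05 FPKM in control 5 to 38.6 FPKM in mimic 5. Ryr1, the release channel, ran from 10.1 FPKM in control 5 to 57.6 FPKM in mimic 2. Trdn, triadin, which links the channel to calsequestrin, ran from 5.66 FPKM in control 5 to 48.0 FPKM in mimic 5. Their log2 fold changes were 1.08 (SE 0.65), 0.61 (SE 0.60) and 0.91 (SE 0.64), and without control 5 they were 0.44, 0.035 and 0.24.

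Calsequestrin stores calcium inside the reticulum. Casq1, the fast form (chromosome 1, 172209894 to 172219895), stood at 94.8, 67.7 and 23.2 FPKM in the controls and 80.1, 175, 114 and 237 FPKM in the mimic ankles. Mimic ankles 2, 4 and 5 lay above all controls and mimic 1 between controls. Its log2 fold change was 1.39 (SE 0.54, limma adjusted p = 0.255), the smallest p among members with a positive value, and 0.80 without control 5. Casq2, the slow and cardiac form, stood at 6.12, 2.88 and 2.87 FPKM in the controls and 5.33, 11.9, 3.71 and 7.47 FPKM in the mimic ankles. Its lowest libraries were control 3 and control 5, which hardly differed.

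The pumps return calcium to the reticulum. Atp2a1, the fast fibre pump and the highest calcium member (chromosome 7, 126445860 to 126463073), stood at 726, 476 and 118 FPKM in the controls and 314, 932, 552 and 1298 FPKM in the mimic ankles. The log2 fold change of Atp2a1 was 0.97, with an SE of 0.70 and a limma adjusted p of 0.482, and 0.20 without control 5. Atp2a2, the pump of slow and heart muscle with a form used in most other cells (chromosome 5, 122453513 to 122502225), stood at 44.6, 49.8 and 47.7 FPKM in the controls and 35.9, 40.9, 44.3 and 41.2 FPKM in the mimic ankles. The highest mimic library was thus just below the lowest control, and the log2 fold change was -0.22 (SE 0.082, limma adjusted p = 0.241), and -0.22 without control 5 as well. Atp2a2 and Tpm3 varied by 1.39 and 1.33 times between libraries, and each of the other 45 members by at least 3.14 times.

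Pvalb, parvalbumin, a calcium buffer that speeds relaxation of fast fibres, had the widest range and is described for that reason, after its values were seen. It stood at 429.6, 197 and 25.1 FPKM in the controls and 210.2, 478, 352 and 987 FPKM in the mimic ankles. Its log2 fold change was 1.74 (SE 0.95, limma adjusted p = 0.372), and 0.57 without control 5. Ckm, the muscle creatine kinase that buffers ATP, stood at 509.7, 336 and 67.2 FPKM in the controls and 219, 584, 385 and 933 FPKM in the mimic ankles. Mb, myoglobin, the oxygen store of oxidative fibres, ran from 44.7 FPKM in control 5 to 456 FPKM in mimic 5. The log2 fold change was 1.03 (SE 0.75) for Ckm and 1.17 (SE 0.62) for Mb, and neither passed. Without control 5 these were 0.16 and 0.45.

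Slow and fast isoforms were also compared within each library, per length. For each of 10 pairs the log2 ratio of slow over fast, with 0.5 FPKM added to each, was set against group by an exact permutation test over all 35 ways of dividing 7 libraries into 3 and 4. The smallest p that this design allows is 0.0286. The fast form was the higher of the pair in every library for all pairs but Mybpc1 over Mybpc2 and Myoz2 over Myoz1. Myoz2 was the higher in control 5 alone. Mybpc1, the form named slow, was the higher in every library, at 64.4% to 89.7% of its pair. Whether the Mybpc1 RNA came from slow fibres was not tested. No pair passed: the exact p ran from 0.143 to 0.971, and the Benjamini-Hochberg value over the 10 pairs from 0.531 to 0.971. The ratio was lower in the mimic group for 8 pairs and higher for 2, and the groups overlapped for all 10.

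The pair with the largest difference was Atp2a2 over Atp2a1, at -2.85 ± 1.40 log2 units (SD, n = 3) in controls and -4.05 ± 0.83 (SD, n = 4) in mimic ankles (exact permutation p = 0.229). In it Atp2a2 was nearly level, so the ratio followed Atp2a1: it was highest in control 5, at -1.30, and lowest in mimic 5, at -4.96. Without control 5 the difference between the groups went from -1.20 to -0.420 and was no longer the largest. Larger in size were then Mybpc1 over Mybpc2 (0.74), Myl2 over Mylpf (-0.55) and Myl3 over Myl1 (-0.49). So were Myoz2 over Myoz1 (-0.48) and Tnni1 over Tnni2 (0.423). Myoz2 over Myoz1 stood at -0.21 ± 0.70 in controls and -1.04 ± 0.49 in mimic ankles (exact permutation p = 0.143). Mybpc1 over Mybpc2 went the other way, at 1.62 ± 0.87 in controls and 2.44 ± 0.63 in mimic ankles (exact permutation p = 0.171). Casq2 over Casq1 stood at -3.66 ± 0.78 and -4.32 ± 0.59 (exact permutation p = 0.286).

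The troponin ratios varied least. Tnni1 over Tnni2 stood at -3.23 ± 0.27 in controls and -2.96 ± 0.42 in mimic ankles (exact permutation p = 0.343), and the slow form made up 8.64% to 15.1% of the pair. Tnnt1 over Tnnt3 stood at -1.68 ± 0.51 and -1.73 ± 0.31 (exact permutation p = 0.971), with 20.2% to 31.9% slow. Tnnc1 over Tnnc2 stood at -2.90 ± 0.53 and -3.12 ± 0.27 (exact permutation p = 0.600), with 8.70% to 16.4% slow. Among the myosins, Myh7 over Myh4 stood at -2.55 ± 0.42 and -2.88 ± 0.89 (exact permutation p = 0.657). Myl2 over Mylpf stood at -4.80 ± 0.55 and -5.35 ± 0.62 (exact permutation p = 0.286), and Myl3 over Myl1 at -5.63 ± 0.78 and -6.07 ± 0.31 (exact permutation p = 0.371). In control 5, the library with the lowest summed level of the members, the slow share was the highest of the 7 for Tnnt1, Tnnc1, Myoz2, Casq2 and Atp2a2, and for the other 5 pairs it was not.

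**Figure D4:**
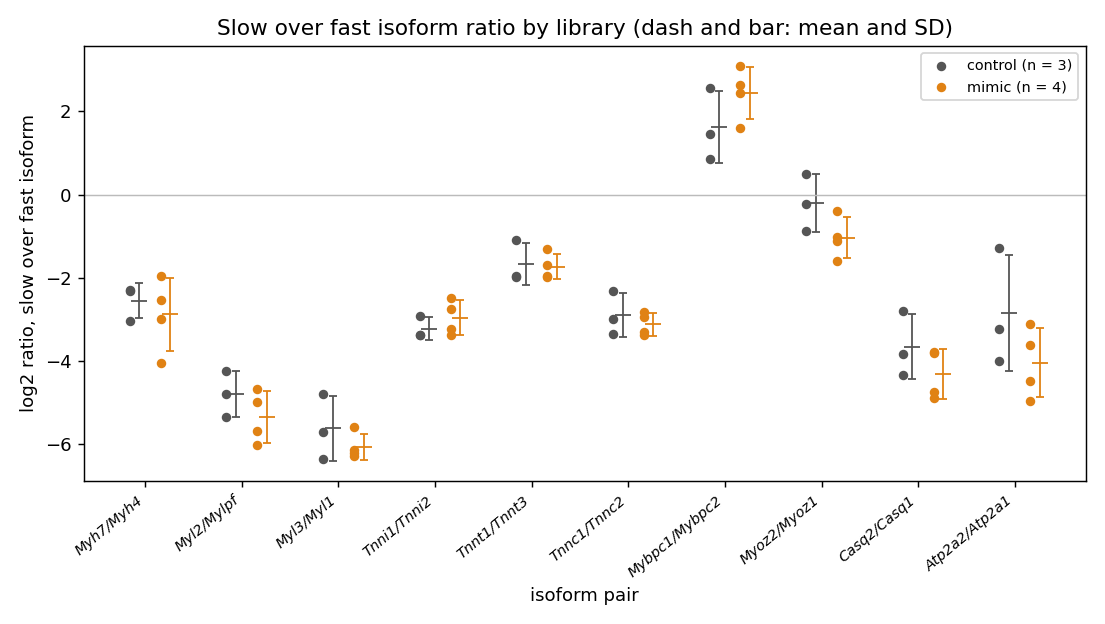
Points give the log2 ratio of the slow over the fast isoform (vertical axis, log2 units) in each control library (grey, n = 3) and mimic library (orange, n = 4) for the 10 pairs on the horizontal axis, and dashes with bars give the group mean and SD. The groups overlap for every pair, and the spread is smallest for the troponin pairs.

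Across the 10 members listed as slow, Mybpc1 among them, the median log2 fold change was 0.79, with 9 positive. Across the 14 fast members it was 1.09, with 14 positive. None of either set passed. Without control 5 the medians were 0.22 and 0.45. Between the lowest and the highest library the slow members varied by a median of 7.23 times and the fast members by 10.1 times.

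Muscle genes outside the members were counted by list, and control 5 was lowest for 72 of the 92 listed. Of 35 other sarcomere and Z-disc genes 33 were tested, 30 had a positive log2 fold change and the median was 0.63. Myh8, the perinatal myosin heavy chain, had 1.31 (SE 0.51) and Myl6b, a light chain, 1.602 (SE 0.64, limma adjusted p = 0.265). Of 23 tested triad and calcium genes 22 were positive, with a median of 0.60: the sodium-calcium exchanger Slc8a3 had 0.50 (SE 0.21), while Fkbp1a, which binds the release channel and is made in most cells, had -0.16 (SE 0.067), with every mimic library below every control. Of 21 muscle metabolism genes 20 were positive, with a median of 0.80. Gpd1, glycerol-3-phosphate dehydrogenase, which fat cells also make, was the 1 gene of these 4 lists with every mimic library above every control, at 12.6 FPKM on average in controls and 26.6 FPKM in mimic ankles (log2 fold change 1.16, SE 0.34, limma adjusted p = 0.192). Over all genes tested, every mimic library lay above every control for 6.48% and below every control for 8.84%. Eno3, muscle enolase, had 1.29 (SE 0.52). The dystrophin complex, which ties the fibre to its surroundings, had 12 of 12 positive with a smaller median, 0.27, among them Sspn at 0.48 (SE 0.15). None of these 89 tested genes passed. Without control 5 the medians of the 4 lists were 0.20, 0.17, 0.22 and 0.062, and Gpd1 had 0.72, Eno3 0.76, Myl6b 1.08, Myh8 1.001, Slc8a3 0.34, Fkbp1a -0.10 and Sspn 0.35.

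Markers of other cells were read beside the members. The 8 heart markers summed to between 39.3 and 93.0 FPKM in controls and between 39.2 and 90.96 FPKM in mimic ankles, and 3 stayed under 1 FPKM in each library. Nppa was at 0 in all 7, and Nppb and Myl7 reached 0.0416 and 0.112 FPKM. The other 5 were above that: Myh6 ran from 0.326 to 2.67 FPKM, Tnni3 from 3.27 to 4.76, Actc1 from 4.67 to 18.9, Tnnt2 from 7.20 to 23.5 and Ankrd1 from 8.89 to 50.5 FPKM. Actc1 and Tnnt2 are also among the other sarcomere and Z-disc genes counted above, so these values do not single out heart cells. The 9 smooth muscle markers, which mark vessel walls, were all higher in mean in mimic ankles. They summed to between 248 (control 5) and 321 FPKM in controls and between 298 and 377 FPKM in mimic ankles. Nerve and Schwann cell markers summed to 301, 232 and 163 FPKM in controls 2, 3 and 5 and to 281, 307, 231 and 308 FPKM in mimic ankles 1, 2, 4 and 5, so control 5 was lowest there as well. Adipocyte markers ran from 582 to 1028 FPKM in controls and from 1137 to 1485 FPKM in mimic ankles, with 8 of 8 higher in mean. Neutrophil markers summed to 3153, 6378 and 5465 FPKM in the controls and 3442, 2737, 3219 and 1341 FPKM in the mimic ankles, with 0 of 8 higher in mean. Their lowest sum was in mimic 5, where the muscle sum was highest. Their highest sum was in control 3, while the muscle sum was lowest in control 5. The 5 satellite cell markers summed to between 48.3 and 52.9 FPKM in controls and between 44.9 and 55.9 FPKM in mimic ankles, most of it Vcam1, which other cells also make (42.8 to 54.2 FPKM). Pax7, Myf5 and Calcr stayed under 1 FPKM in each library, and Chodl reached 1.65 FPKM. Osteoclast markers ran from 2556 to 2695 FPKM in controls and from 2035 to 2236 FPKM in mimic ankles. Of these 6 markers, 0 were higher in mean. Erythroid markers ran from 153 to 655 FPKM in controls and from 217 (mimic 5) to 1718 FPKM in mimic ankles. Tendon markers were lowest in control 2 and endothelium markers in control 3. Cartilage, osteoblast, macrophage and immediate early lists were read but are not given here. These counts of markers higher in mean include control 5 and were not repeated without it. Of all 13418 genes tested, 6487 had a positive log2 fold change. The part of these cell types in the members' values was not tested.

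**Figure D5:**
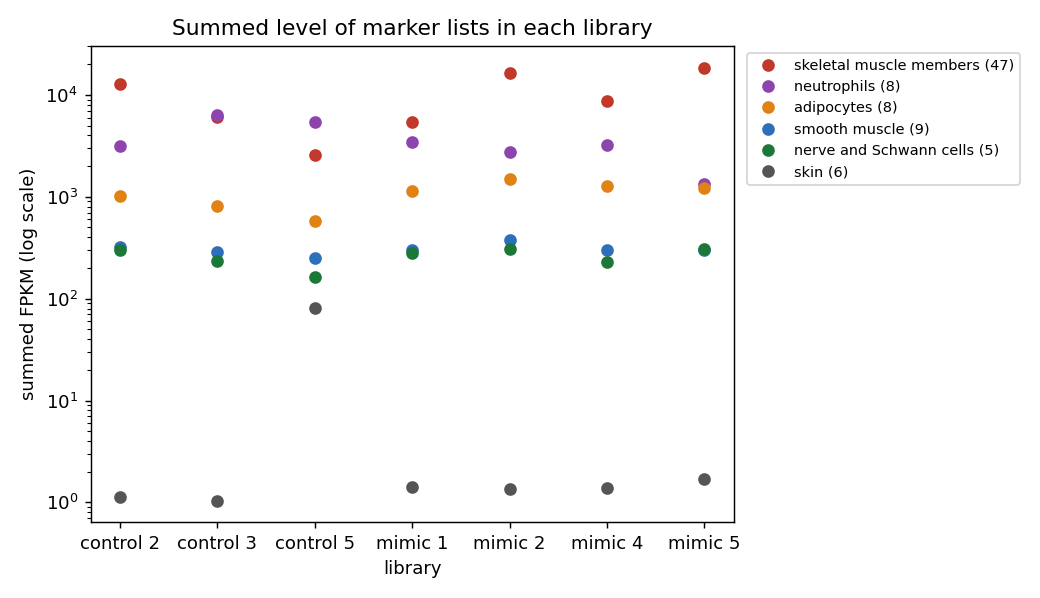
Points are the summed FPKM (vertical axis, log scale) of the 47 muscle members and of 5 marker lists in each of the 7 libraries on the horizontal axis. The muscle sum runs from 2555 in control 5 to 18552 in mimic 5, and the skin sum stands at 80.7 in control 5 and at 1.68 or less elsewhere.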

How the data were processed

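The authors deposited FPKM values per gene and library, with Entrez numbers, exon positions and joined exon length, per the file headers. Per the submitters' processing notes, the tools were STAR 2.5.2b, bcl2fastq 2.20, DESeq2 1.14.1, Subread and featureCounts (roles unstated) on mm10 or GRCm38. The strand setting and kit are not stated there, so overlapping genes cannot be told apart. Symbols came from a RefSeq table of GRCm38.p6, for 25275 of 27179 genes. FPKM times length gave whole reads, within 0.01, for 100% of values, and so the depth. No pair of libraries agreed within sampling noise (chi-square per gene at least 17.6).

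Groups were compared with limma 3.58.1 under R 4.3.3 (lmFit, eBayes with trend) on log2(FPKM + 0.5), for the genes whose mean reached 1 FPKM, with group as the single factor and Benjamini-Hochberg adjustment over all genes, 2-sided, at 0.05. The fit was also run on simulated data with noise drawn separately for each gene. The members moved together by library, so that run does not give the power of the test for them. Isoform pairs used an exact permutation test. Alternatives were pseudocounts of 0.1 and 1, other filters, scalings and weights, limma-voom on recovered reads, the replicate number as a block and leaving out each library. Named with values per library were the isoform pairs, the highest member of each role, the 3 members with the smallest p and the 2 with a fold change nearest 0; of each other muscle list, the 2 genes with the smallest p, of which 1 is not reported here. Members and lists were chosen with earlier results of these data known. Python 3.11.15, pandas 2.3.3 and matplotlib 3.10.9 were used.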

Additional observations from a re-analysis of the deposited data

How the results depend on the processing

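No member passed limma at an adjusted p under 0.05 under any of the 18 alternatives run. The median over the members ran from 0.27 to 1.42 when single libraries were left out, that of the slow members from 0.22 to 1.22 and that of the fast members from 0.45 to 1.77; in each case the lowest came without control replicate 5 and the highest without control replicate 2. Array weights gave 1.13, with 13 members higher and 2 lower at an unadjusted p under 0.05, beside 10.5% and 13.2% of genes tested. With the replicate block, which takes the difference from numbers 2 and 5 alone, it was 1.53 (slow 1.54, fast 1.80), with 6 members higher and 0 lower at an unadjusted p under 0.05, beside 2.97% and 4.96% of genes tested. The numbers are not shown to pair the ankles: same-numbered libraries correlated at 0.54 (number 2) and -0.43 (number 5) in their deviations from the group means. Between the groups, libraries with different numbers correlated from -0.52 (control 2 with mimic 1) to 0.53 (control 5 with mimic 1). The other 9 alternatives that kept all libraries gave medians from 0.82 to 0.86.

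Over all genes, leaving out single libraries gave 0 to 115 genes higher and 0 to 202 lower at an adjusted p under 0.05, the highest counts without control replicate 2; 2 were higher without mimic replicate 5, and 1 was lower with no filter on low values. When single libraries were left out, the sign turned for Mybpc2 without control replicate 5 (-0.54) and mimic replicates 2 (-0.0088), 4 (-0.14) and 5 (-0.18), and its highest value was 0.39, without mimic replicate 1. It turned for Des without control replicate 5 (-0.19) and mimic replicate 2 (-0.14), and without control replicate 5 for Acta1 (-0.060) and Lmod2 (-0.018). Among the same leave-outs these were highest without control replicate 2, at 0.68, 1.137 and 1.12. With the replicate block the pair ratio turned for Myh7 over Myh4 (0.43), Myl2 over Mylpf (0.23) and Myl3 over Myl1 (0.13). Leaving out single libraries, Myh7 over Myh4 ran from -0.64 to 0.055 (without mimic replicate 4), Tnnt1 over Tnnt3 from -0.20 to 0.24 (without control replicate 5; 0.021 and 0.030 without mimic replicates 4 and 5) and Tnnc1 over Tnnc2 from -0.45 to 0.067 (without control replicate 5). Group medians turned Tnnt1 over Tnnt3 to 0.15. None of these passed, and the cause was not tested. Myl3, with 29 reads in control 5, had the fewest reads of any member.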
